A study of Mus musculus with 4 samples.

Results

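Type I interferon-stimulated genes are the genes that cells switch on when interferon alpha or beta binds its receptor. The list followed here holds 37 named mouse genes, taken as fixed symbols and matched to the array by symbol or synonym, out of 26758 named genes with a probe. The list was chosen with earlier results of these data known, so its counts beside those of all genes are descriptions only. All 37 had a probe, with 68 probes in all, of which 14 genes had 1 probe and 23 had several. Gene expression was measured on 4 one-colour Agilent arrays, 1 for each combination of genotype and tissue: MSA Tg (transgenic) and wild-type brainstem/cerebellum, and transgenic and wild-type spinal cord. All mice were 24 weeks old and had a strain background labelled C57BL/6, 129 and C3H. Sample titles carry the letters PLP, which the labels do not expand, and the labels used here name neither the transgene nor the promoter that drives it. They do not say whether an array holds RNA of 1 animal or of a pool, and the source field reads brain for the spinal cord samples too.

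In the pathway, interferon at the cell surface activates the kinases Jak1 and Tyk2, which phosphorylate Stat2. Stat2 and Irf9 act in a complex that binds interferon-stimulated response elements in promoters. Induced products detect or degrade foreign RNA, block viral entry and release, and both amplify and limit the signal. In the central nervous system microglia, astrocytes, endothelial cells and neurons can all respond to interferon.

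The response element is visible in the promoters of many of these genes. The pattern searched was GAAA, any 2 bases and a second GAAA, on either strand and with overlapping matches counted apart, in RefSeq promoter windows of GRCm38.p6 that reach from 250 bases before the transcription start to 50 after it. A window was given for 27 of the 37 genes, and 14 of these (51.9%) held the pattern, against 1079 of 27025 genes in all (3.99%). A whole match lay before the transcription start in 10 of the 27, against 3.46% of all genes. In Ddx58, Eif2ak2, Ifih1 and Ifitm3 the pattern lay only after the start. The pattern was not in the window of Cmpk2, Dtx3l, Ifi35, Ifi44, Ifit2, Irf7, Irf9, Isg20, Oasl1, Oasl2, Parp12, Trim25 and Xaf1. No window was used for Mx1, Mx2, Oas1b, Oas2, Parp9, Parp14, Rtp4, Usp18, Ifi27l2a and Zbp1. The stretches around the match are shown for 6 genes from 5 roles whose values are given by sample, 5′ to 3′ on the strand of the gene, with the matched letters in capitals. TTTC, 2 bases and a second TTTC is the same pattern read on the other strand.
Oas1a: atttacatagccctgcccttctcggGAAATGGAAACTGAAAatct
Isg15: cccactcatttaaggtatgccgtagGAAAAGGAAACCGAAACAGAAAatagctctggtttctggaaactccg
Ifit1: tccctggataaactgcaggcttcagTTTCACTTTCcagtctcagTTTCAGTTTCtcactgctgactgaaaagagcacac
Rsad2: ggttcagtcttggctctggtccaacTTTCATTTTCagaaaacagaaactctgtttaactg
Bst2: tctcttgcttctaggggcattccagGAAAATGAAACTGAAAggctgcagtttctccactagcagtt
Trim30a: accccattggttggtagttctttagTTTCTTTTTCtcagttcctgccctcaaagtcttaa
These lie at chr5:120907526-120907570 (Oas1a, minus strand), chr4:156200850-156200921 (Isg15, minus), chr19:34640760-34640838 (Ifit1, plus), chr12:26456538-26456597 (Rsad2, minus), chr8:71537562-71537627 (Bst2, minus) and chr7:104465195-104465254 (Trim30a, minus). The first match began 20 bases before the start in Oas1a and 78 in Isg15, where 3 matches overlap. Oas1g carried the same 43 of 43 letters as Oas1a over the stretch compared.

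Signals are given on a log2 scale after subtracting the 75th percentile of each array, so that 0 is the brightness of the 75th percentile and 1 unit is a 2-fold change. Differences are transgenic minus wild type within a tissue, and a pair of differences is that of brainstem/cerebellum and that of spinal cord, in this order. With 1 array in a group there is no spread between samples and no test. Repeated spots of the same probe gave a technical SD of a difference between 0.0913 for bright and 0.662 for the dimmest signals, which leaves out animals, labelling and hybridisation. For signals between -5 and 0 this SD rests on few repeated probes. The 75th percentile stood at signals of 458 (transgenic) and 437 (wild type) in brainstem/cerebellum, and of 410 (transgenic) and 678 (wild type) in spinal cord. Both brainstem/cerebellum arrays and the transgenic spinal cord array shared slide 1, while the wild-type spinal cord array was alone on slide 2, so genotype and slide cannot be told apart in spinal cord. Tissue markers followed the labels: the summed signal of 5 cerebellar genes was 189 (transgenic) and 178 (wild type) times the 75th percentile in brainstem/cerebellum, and 4.97 (transgenic) and 8.77 (wild type) times in spinal cord.

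Most of the 37 genes were brighter in transgenic tissue. In brainstem/cerebellum 33 genes were well above background on both arrays, and 17 of these were at least 2-fold higher in the transgenic sample, where 2.66% of all named genes were. Zbp1 and Mx1, above background on the transgenic array only, passed 2-fold by their lower bound and made 19, against 3.60% of genes counted in that way. None was 2-fold lower (0.304% of all genes), and the difference was above 0 in 32 of the 33 genes, against 38.5% of all genes. The median difference was 1.02 over these 33 genes and 1.08 over all 36 above background on at least 1 array, where it was -0.07 and -0.06 over all named genes. Over all 37, with no filter, it was 1.08, against -0.12 for all named genes.

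In spinal cord 35 genes were above background on both arrays, and 23 of them were at least 2-fold higher in the transgenic sample, against 8.48% of all named genes. None was 2-fold lower, against 6.37%, and the difference was above 0 in 33 of 35, against 46.6%. The median difference was 1.11 over the 35 genes and -0.05 over all named genes above background on both arrays. With each array set to its spike-in control RNAs in place of the 75th percentile, the count was 11 and the median 0.74, because all spinal cord differences move down together (the median of all genes becomes -0.43). A background correction by normexp with quantile normalization gave 7 genes in brainstem/cerebellum and 15 in spinal cord.

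A 2-fold excess in both tissues was measured for 14 of the 33 genes above background on all 4 arrays, against 2.17% of all genes, and for 16 with Zbp1 and Mx1. Of these 33 genes, 3 passed in brainstem/cerebellum alone (0.459% of all genes), 7 in spinal cord alone (5.39%) and 9 in neither. For 25 of the 33 genes both transgenic arrays were brighter than both wild-type arrays, whatever the tissue (13.5% of all genes). The exceptions were Oas1b, Trim25, Cmpk2, Stat2, Parp12, Ifi35, Ifitm3 and Xaf1. Of the measured differences, 29 of 33 in brainstem/cerebellum and 34 of 35 in spinal cord were larger than 2 technical SD, as were 36.1% of all genes measured in brainstem/cerebellum and 64.9% of those measured in spinal cord.

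**Figure D1:**
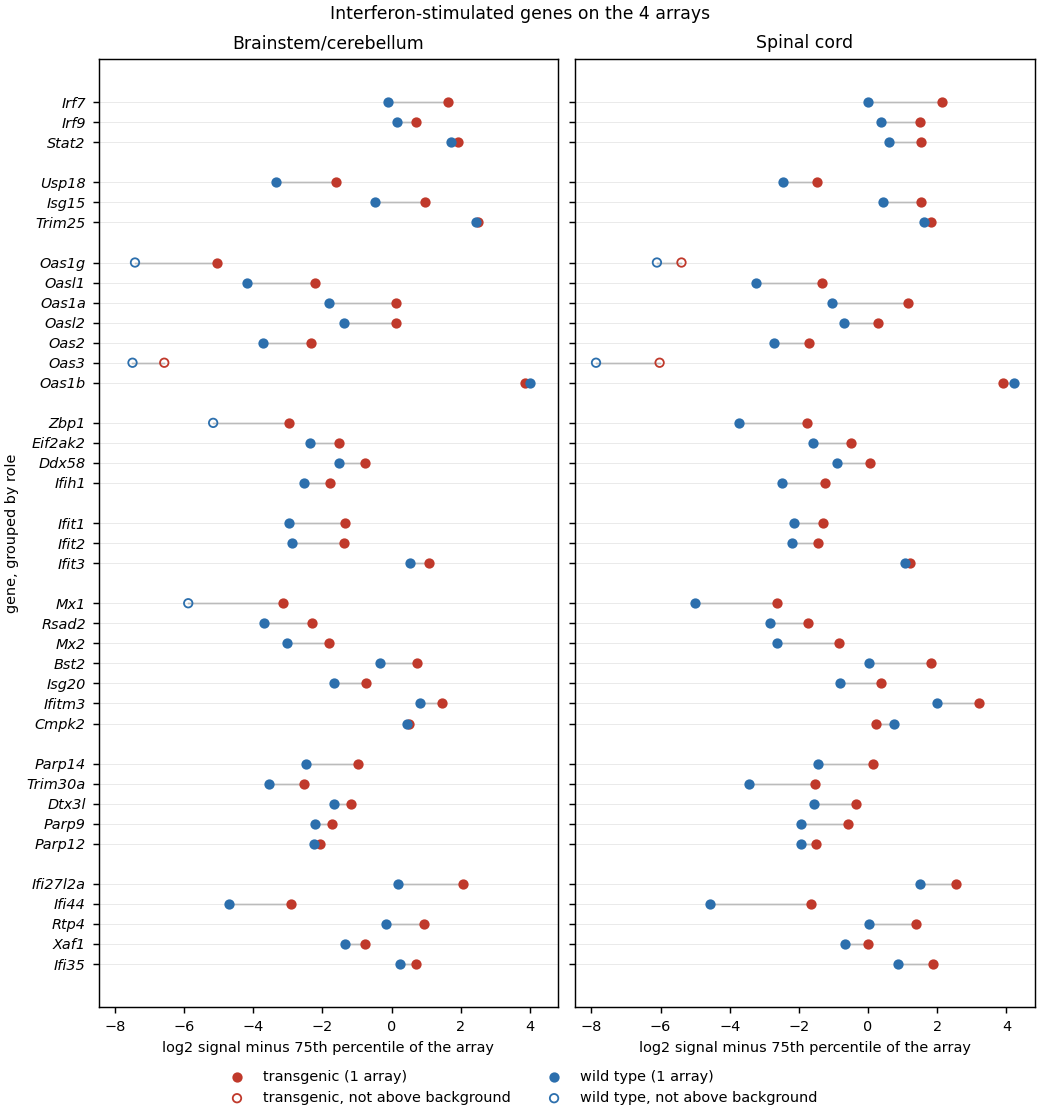
Log2 signal minus the 75th percentile of the array (x axis) for each of the 37 genes (y axis, grouped by role), with the transgenic array in red and the wild-type array in blue, 1 array each, in brainstem/cerebellum (left) and spinal cord (right). Open circles mark probes not above background; the red point lies right of the blue one for 35 of the 36 genes above background on an array of brainstem/cerebellum, Oas1b being the exception.

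Among the 3 genes grouped as JAK-STAT output, Irf7, Irf9 and Stat2, Irf7 had the largest differences in both tissues. Irf7, the transcription factor that amplifies interferon alpha production, had a signal of 1.64 in transgenic and -0.09 in wild-type brainstem/cerebellum. In spinal cord it had 2.12 in the transgenic and 0.0022 in the wild-type sample. Both transgenic arrays lay well above both wild-type arrays, and the differences were 1.73 ± 0.11 and 2.12 ± 0.10 (technical SD), or 3.31-fold and 4.35-fold. The probe lies at chr7:148449104-148449163 (mm9, minus strand), and a second Irf7 probe gave a spinal cord difference of 1.8.

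Irf9 and Stat2, the DNA-binding and transactivating parts of the interferon-activated complex, differed less. Irf9 was at 0.70 in transgenic and 0.15 in wild-type brainstem/cerebellum, and at 1.49 in transgenic and 0.36 in wild-type spinal cord. Its difference of 0.54 in brainstem/cerebellum was under 2-fold and that of 1.12 in spinal cord was over it. Stat2 was at 1.92 in transgenic and 1.72 in wild-type brainstem/cerebellum, and at 1.53 in transgenic and 0.60 in wild-type spinal cord, so neither difference (0.20 and 0.93) reached 2-fold. Stat2 was the 1 gene of the list at least 2-fold dimmer in wild-type spinal cord than in wild-type brainstem/cerebellum (-1.12).

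In the ISG15 system, 2 of 3 genes passed 2-fold in each tissue. Isg15, the ubiquitin-like protein attached to other proteins during the response, had 0.97 in transgenic and -0.47 in wild-type brainstem/cerebellum, and 1.54 in transgenic and 0.43 in wild-type spinal cord. Usp18, the protease that removes Isg15 and dampens receptor signalling, had -1.61 in transgenic and -3.34 in wild-type brainstem/cerebellum, and -1.47 in transgenic and -2.47 in wild-type spinal cord. The differences were 1.44 and 1.73 in brainstem/cerebellum and 1.11 and 1.001 in spinal cord for Isg15 and Usp18. Usp18 in spinal cord thus stood at the threshold. Trim25, a ubiquitin ligase that activates the RNA sensor encoded by Ddx58, depended on the probe. Its brightest probe gave 0.07 in brainstem/cerebellum, turning to -0.09 with median scaling, and 0.20 in spinal cord, turning to -0.16 with spike-in scaling. A probe to the RefSeq transcript gave 0.44 and 1.16.

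The oligoadenylate synthetases make the small nucleotides that switch on RNase L. Of this family, counted together with its synthetase-like genes, 4 of the 5 measured genes passed 2-fold in brainstem/cerebellum and 3 of 5 in spinal cord. Oas1a had 0.12 in transgenic and -1.82 in wild-type brainstem/cerebellum, and 1.14 in transgenic and -1.05 in wild-type spinal cord. Both transgenic arrays exceeded both wild-type ones, by 1.94 ± 0.12 in brainstem/cerebellum and 2.19 ± 0.12 in spinal cord (technical SD). The Oas1a probe (chr5:121346735-121346794, mm9, minus strand) also matches a transcript of Oas1g, so the 2 genes cannot be told apart by it. The Oas1g probe itself was above background on the transgenic brainstem/cerebellum array alone, where its bound was at least 1.14-fold.

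Oasl1 and Oasl2, synthetase-like genes, were higher in the transgenic sample in both tissues. Oasl1 was at -2.20 in transgenic and -4.16 in wild-type brainstem/cerebellum, and at -1.32 in transgenic and -3.25 in wild-type spinal cord, and its differences of 1.96 and 1.92 lay within 1 technical SD of each other. Oasl2 was at 0.14 in transgenic and -1.36 in wild-type brainstem/cerebellum, and at 0.28 in transgenic and -0.68 in wild-type spinal cord. Its difference was 1.5 in brainstem/cerebellum and 0.96, just under 2-fold, in spinal cord. For Oas2 the differences were 1.41 and 1.04. Oas3 was not well above background on any array. Oas1b, known in many laboratory mouse strains for a premature stop codon, was the exception by its brightest probe. This had 3.87 in transgenic and 3.99 in wild-type brainstem/cerebellum, and 3.91 in transgenic and 4.21 in wild-type spinal cord. Those small differences (-0.12 and -0.30) depended on the probe: a second one above background on all 4 arrays gave 0.39 and -0.06. Averaging the 3 Oas1b probes, 1 of them above background on no array, gave 0.075 and 0.026. The authors' deposited values gave 0.0032 in brainstem/cerebellum.

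Of the nucleic acid sensors, none of the 3 measured in brainstem/cerebellum passed 2-fold, and Zbp1 did so by its bound, while 3 of 4 passed in spinal cord. Zbp1, which recognises Z-form nucleic acids, had -2.96 in transgenic brainstem/cerebellum and was not well above background in wild type, at -5.15. This was at least 4.57-fold higher in transgenic tissue. In spinal cord Zbp1 had -1.76 in transgenic and -3.74 in wild type, a difference of 1.99 ± 0.21 (technical SD). The RNA helicase genes Ifih1 and Ddx58 and the RNA-activated kinase gene Eif2ak2 were brighter on both transgenic arrays than on either wild-type array. Their differences were 0.76, 0.77 and 0.84 in brainstem/cerebellum and 1.25, 0.96 and 1.08 in spinal cord. A second Ddx58 probe gave 1.65 in brainstem/cerebellum and 1.56 in spinal cord, so its call depends on the probe.

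The IFIT genes, whose products bind foreign RNA and block its translation, had 2 of 3 members past 2-fold in brainstem/cerebellum and none in spinal cord. Ifit1 had -1.35 in transgenic and -2.97 in wild-type brainstem/cerebellum, and -1.30 in transgenic and -2.15 in wild-type spinal cord. Ifit2 had -1.36 in transgenic and -2.89 in wild-type brainstem/cerebellum, and -1.45 in transgenic and -2.20 in wild-type spinal cord. For both genes the transgenic arrays of the 2 tissues were nearly as bright as each other, and the wild-type spinal cord array was brighter than the wild-type brainstem/cerebellum array. The differences were 1.62 ± 0.17 and 1.52 ± 0.17 in brainstem/cerebellum, and 0.85 ± 0.17 and 0.76 ± 0.17 in spinal cord (technical SD). Ifit3 differed by 0.55 in brainstem/cerebellum and by 0.16 in spinal cord, the second value turning to -0.21 with spike-in scaling. All 3 lie within a cluster on chromosome 19.

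Of the direct antiviral effectors, 3 of 6 measured genes passed 2-fold in brainstem/cerebellum, Mx1 did so by its bound, and 6 of 7 passed in spinal cord. Mx1 and Mx2 encode GTPases that trap viral particles, and many inbred mouse strains are known to carry defective copies. Mx1 had -3.12 in transgenic brainstem/cerebellum and was not well above background in wild type (-5.88), which is at least 4.31-fold higher in transgenic tissue. In spinal cord it had -2.64 in transgenic and -5.0 in wild type, a difference of 2.35 ± 0.22 (technical SD). Mx2 differed by 1.21 in brainstem/cerebellum and 1.79 in spinal cord.

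Bst2, the tetherin that holds budding virus at the cell surface, had 0.74 in transgenic and -0.34 in wild-type brainstem/cerebellum, and 1.81 in transgenic and 0.014 in wild-type spinal cord. Ifitm3, which blocks viral fusion in endosomes, had 1.45 in transgenic and 0.83 in wild-type brainstem/cerebellum, and 3.22 in transgenic and 1.98 in wild-type spinal cord. Bst2 passed 2-fold in both tissues (1.08 and 1.8), and Ifitm3 passed it in spinal cord (1.24) but not in brainstem/cerebellum (0.62). Isg20, an RNA exonuclease, was at 0.93 and 1.19, short of 2-fold in brainstem/cerebellum. A second Isg20 probe above background on all 4 arrays gave 1.02 and 1.37, so the call in brainstem/cerebellum depends on the probe.

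Rsad2 and Cmpk2 form a neighbouring pair on chromosome 12 that differed. Rsad2, the enzyme viperin that makes a chain-terminating nucleotide, had -2.29 in transgenic and -3.68 in wild-type brainstem/cerebellum, and -1.74 in transgenic and -2.84 in wild-type spinal cord. Cmpk2, a mitochondrial nucleotide kinase, had 0.52 in transgenic and 0.45 in wild-type brainstem/cerebellum, and 0.22 in transgenic and 0.74 in wild-type spinal cord. Rsad2 thus differed by 1.39 and 1.1 and Cmpk2 by 0.07 (-0.10 with median scaling) and -0.52. The Rsad2 probe lies at chr12:27127859-27127918 (minus strand) and the only Cmpk2 probe at chr12:27164134-27164193 (plus strand), both in mm9.

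The PARP and ubiquitin ligase genes had 2 of 5 members past 2-fold in brainstem/cerebellum and 4 of 5 in spinal cord. Parp14, an ADP-ribosyltransferase, had -0.97 in transgenic and -2.48 in wild-type brainstem/cerebellum, and 0.13 in transgenic and -1.44 in wild-type spinal cord, for differences of 1.51 and 1.57. Parp9 and Dtx3l, which form a complex of ADP-ribosyltransferase and ubiquitin ligase, were short of 2-fold in brainstem/cerebellum (0.49 and 0.50) and past it in spinal cord (1.35 and 1.21). Averaging the Dtx3l probe with a second one that was not above background on any array gave -0.23 and -0.0035. Parp12 was at 0.20 and 0.44. Trim30a, a ubiquitin ligase of the tripartite motif family, had -2.53 in transgenic and -3.55 in wild-type brainstem/cerebellum, and -1.54 in transgenic and -3.45 in wild-type spinal cord. Its 3 probes were all positive but spread from 0.25 to 1.62 in brainstem/cerebellum and from 0.98 to 1.91 in spinal cord.

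Among the remaining induced genes 3 of 5 passed 2-fold in each tissue. Ifi44 had -2.91 in transgenic and -4.69 in wild-type brainstem/cerebellum, and -1.65 in transgenic and -4.58 in wild-type spinal cord. Its wild-type values were close in both tissues, and its spinal cord difference of 2.93 ± 0.20 (technical SD, 7.65-fold) was the largest of the 35 measured there. Ifi27l2a had 2.06 in transgenic and 0.18 in wild-type brainstem/cerebellum, and 2.54 in transgenic and 1.5 in wild-type spinal cord. Here the wild-type spinal cord was already bright, and the differences were 1.88 and 1.04. Rtp4, a receptor chaperone, differed by 1.08 and 1.38, Xaf1, a pro-apoptotic factor, by 0.58 and 0.66, and Ifi35 by 0.47 and 0.99.

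**Figure D2:**
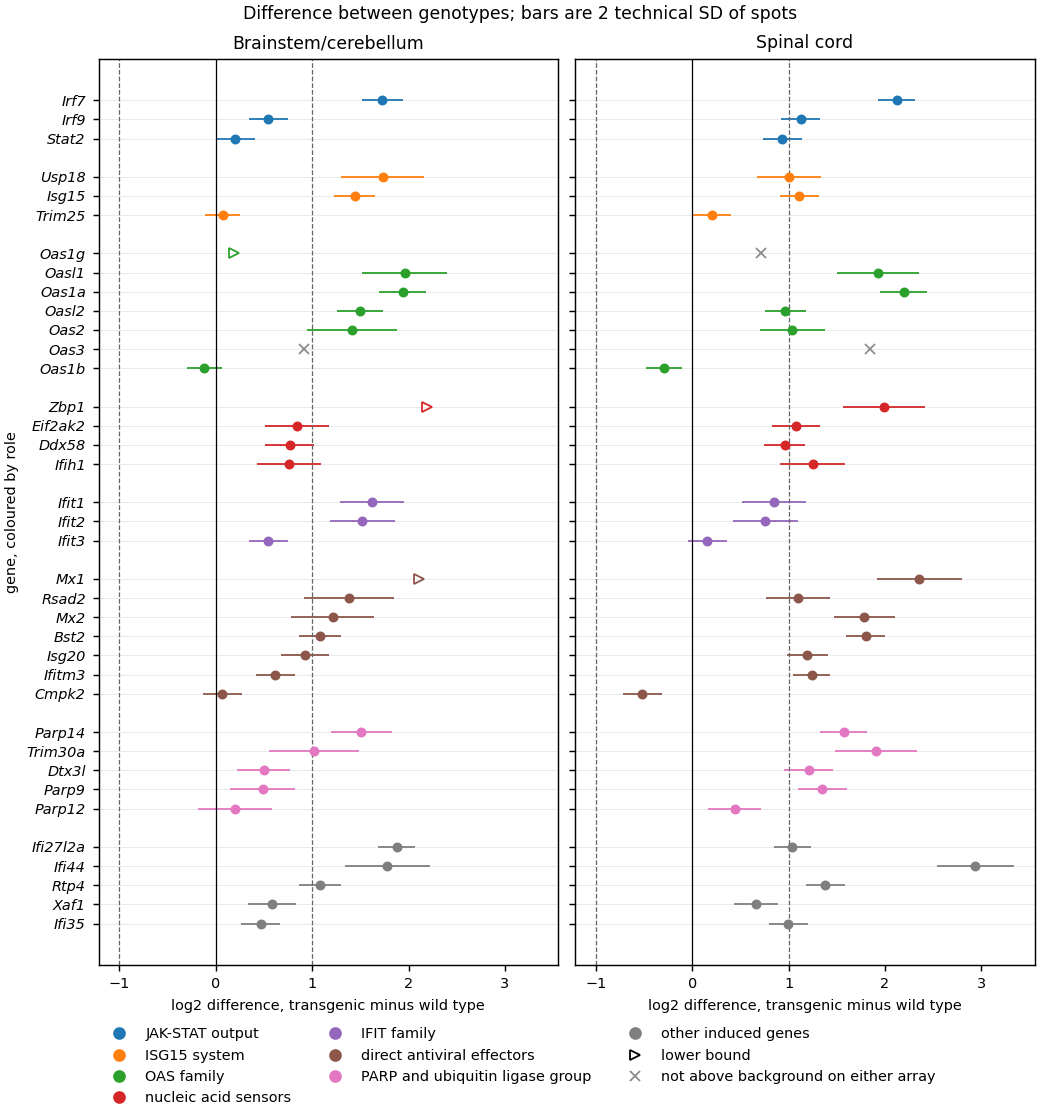
Log2 difference, transgenic minus wild type (x axis), for the 37 genes by role (y axis) in brainstem/cerebellum (left) and spinal cord (right). Points are measured differences with bars of 2 technical SD, triangles are lower bounds, crosses are probes above background on neither array, and dashed lines mark 2-fold; the IFIT genes lie further right in brainstem/cerebellum and Ifi44 reaches 2.93 in spinal cord.

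Whether the 2 tissues differed alike was followed gene by gene. The spinal cord and brainstem/cerebellum differences had a Pearson correlation of 0.656 over the 33 members above background on all 4 arrays, and of 0.590 over all 16333 such genes. These are descriptions across genes of 1 array a group, and genes are not independent replicates. The spinal cord difference was the larger in 21 genes and the brainstem/cerebellum one in 12, with a median excess of 0.24 in spinal cord (0.02 over all genes). That median turned to -0.19 with spike-in scaling, so which tissue differed more depends on the scaling.

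How the genes rank against each other does not depend on such a constant. The largest excess in spinal cord was in Ifi44 (1.15), Trim30a (0.89), Parp9 (0.86), Stat2 (0.73) and Bst2 (0.71). At the other end were Ifi27l2a (-0.84), Ifit1 (-0.77), Ifit2 (-0.76), Usp18 (-0.73) and Cmpk2 (-0.59). By role, the excess ran from 0.06 to 0.89 over the 5 PARP and ubiquitin ligase genes and from 0.40 to 0.73 over the 3 JAK-STAT genes, and from -0.77 to -0.39 over the 3 IFIT genes. The technical SD of an excess was 0.24 for Ifit1 and 0.30 for Ifi44. With normexp and quantile normalization the IFIT genes spanned -0.54 to -0.31 and the PARP group 0.21 to 0.77. With probes averaged the PARP group spanned -0.43 to 0.56 and the JAK-STAT genes -0.17 to 0.66. None of these differences between tissues could be tested.

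**Figure D3:**
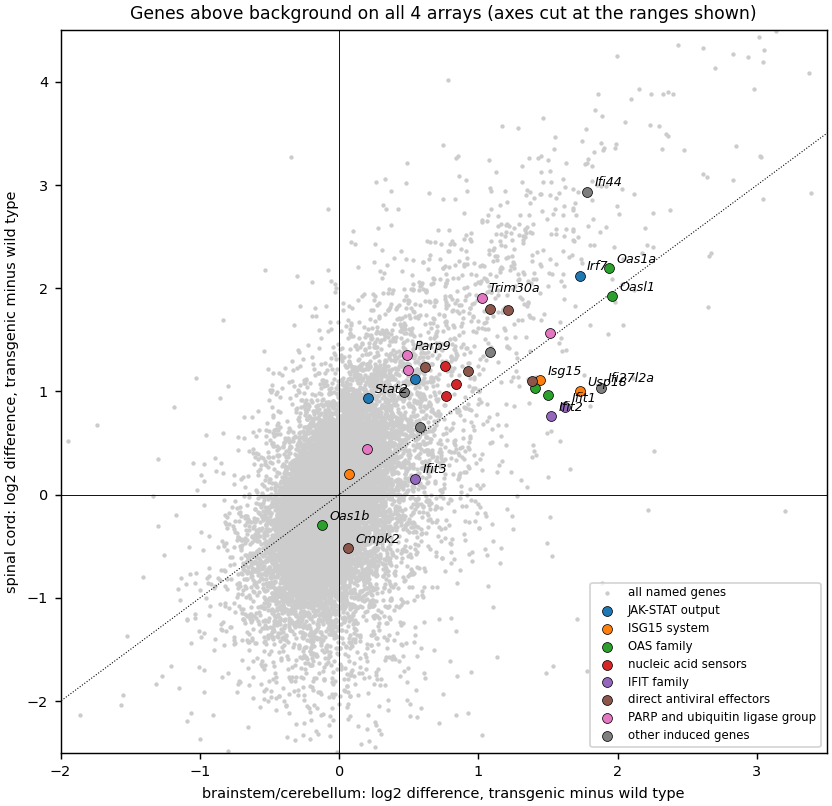
Difference in brainstem/cerebellum (x axis) against difference in spinal cord (y axis), both log2 transgenic minus wild type, for the 33 genes above background on all 4 arrays (coloured by role) and the other genes above background on all 4 arrays (grey), with a few grey points outside the ranges shown. The dotted line marks equal differences; Ifi44 and Trim30a lie above it, and Ifit1, Ifit2, Usp18 and Ifi27l2a lie under it.

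The tissues were also compared within each genotype, as spinal cord minus brainstem/cerebellum. In transgenic mice, whose 2 arrays shared a slide, the spinal cord was brighter than brainstem/cerebellum for 31 of 35 genes (48.7% of all genes) and at least 2-fold brighter for 10 (10.1%), with none 2-fold dimmer (6.24%). The 10 were Ifitm3 (1.77), Ifi44, Zbp1, Ifi35, Parp9, Isg20, Parp14, Bst2, Oas1a and Eif2ak2 (1.01). In wild-type mice, whose arrays lay on different slides, spinal cord was brighter for 31 of 33 genes (47.6%), at least 2-fold for Ifi27l2a (1.32), Ifitm3 (1.15) and Parp14 (1.04) among the measured genes (6.51%). Stat2 was the 1 gene 2-fold dimmer (4.35%). The median tissue difference was 0.59 in transgenic and 0.62 in wild-type mice, and the transgenic one was 0.24 with spike-in scaling.

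Genes upstream of the list were followed as a fixed set of other lists, also chosen with earlier results of these data known. Of 15 interferon genes with a probe, 9 were above background on no array, Ifnb1 and Ifng among them. Ifna9 and Ifnl3 were above background on both brainstem/cerebellum arrays, with differences of -0.01 and -0.04, and Ifnl3 on both spinal cord arrays, with -0.67. The rest, Ifna1, Ifna5, Ifna14 and Ifnk, were above background in places and passed 2-fold nowhere. Of the receptor and kinase genes named here, none passed 2-fold in brainstem/cerebellum, and Il10rb and Ifngr1 did in spinal cord. Il10rb differed by 0.44 and 1.59, and Ifngr1 by 0.22 and 1.43. Ifnar1 and Ifnar2, the receptor chains for interferon alpha and beta, differed by 0.27 and 0.40 in brainstem/cerebellum and by 0.29 and 0.69 in spinal cord, where a second Ifnar2 probe gave 1.06. Jak1 differed by -0.14 and -0.22, Tyk2 by 0.11 and 0.33, Jak2 by 0.13 and 0.47 (0.66 and 1.54 by a second probe), Ifngr2 by -0.21 and 0.44, and Ifnlr1 by 0.37 and -0.02.

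In the pathway that induces interferon, 3 of 14 measured genes were 2-fold higher in transgenic brainstem/cerebellum, and 8 of 15 were higher and 1 lower in transgenic spinal cord. Over all named genes, 2.66% were higher in brainstem/cerebellum, and 8.48% were higher and 6.37% lower in spinal cord. The endosomal RNA receptor gene Tlr7 differed by 0.91 and 2.94, Irf8 by 1.16 and 2.42, Irf5 by 1.08 and 2.14, and Tlr3 by 0.62 and -1.78. Second probes above background gave 1.29 and 0.53 for Tlr7, 1.71 and 1.79 for Irf8, -0.04 and 1.28 for Irf5, and -0.25 and 0.28 for Tlr3, the opposite direction in both tissues. Of 7 negative regulators, 2 passed in brainstem/cerebellum and 3 in spinal cord, with Socs3 at 3.01 and 4.44, Ptpn6 at 1.61 and 2.5, Socs1 at 0.20 and 1.09, and Adar at -0.20 and -0.70. The other measured Ptpn6 probes spanned 0.44 to 1.54 in brainstem/cerebellum and -0.25 to 2.34 in spinal cord, and a second Adar probe gave 0.04 and 0.07. Of 38 further interferon-stimulated genes with a probe, 10 of the 33 measured in brainstem/cerebellum and 13 of the 35 measured in spinal cord were 2-fold higher and none was lower. The chemokine gene Cxcl10 differed by 3.39 and 2.92, Ifi204 by 2.32 and 3.35, Slfn2 by 1.78 and 3.21, and Lgals3bp by 1.52 and 3.03. A second Ifi204 probe gave 2.22 and 2.83, while the second probes of Cxcl10 and Lgals3bp were not above background on both arrays of either tissue. On the interferon-gamma side 2 of 10 measured genes passed in brainstem/cerebellum and 5 of 11 in spinal cord. Ciita, the activator of class II antigen presentation genes, was at least 2.33 higher in transgenic brainstem/cerebellum, by its bound, and 3.86 higher in transgenic spinal cord, while Cd274 differed by 0.61 and 1.17, Iigp1 by 1.06 and 0.88, and Irgm2 by 0.36 and 1.01. None of the other 3 Ciita probes was above background on both arrays of a tissue.

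**Figure D4:**
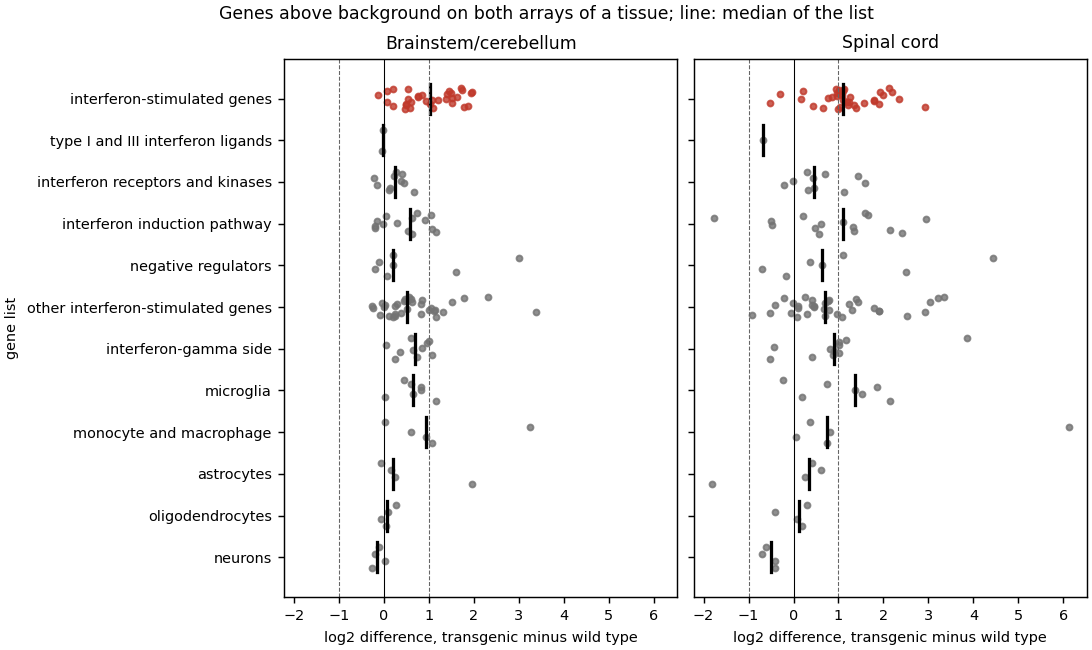
Log2 difference, transgenic minus wild type (x axis), for genes of each list (y axis, 1 point a gene) above background on both arrays of brainstem/cerebellum (left) or spinal cord (right), with the list median as a line and dashed lines at 2-fold. The interferon-stimulated genes have medians of 1.02 and 1.11, the receptors and kinases 0.24 and 0.45, and the microglial markers 0.65 and 1.37.

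Whole tissue was measured, so more cells of a type and more RNA per cell cannot be told apart. Markers of microglia moved with the list: 1 of 7 was 2-fold higher in transgenic brainstem/cerebellum and 4 of 7 in transgenic spinal cord. Aif1 differed by 1.16 and 2.15, Cx3cr1 by 0.83 and 1.86, and Csf1r by 0.65 and 1.52 (0.34 and 0.25 by a second probe). The summed signal of the list, in multiples of the 75th percentile, was 44.6 in transgenic and 26.3 in wild-type brainstem/cerebellum, and 129 in transgenic and 45.4 in wild-type spinal cord. Of the 5 monocyte and macrophage markers above background, 2 passed in brainstem/cerebellum (2.66% of all genes) and 1 in spinal cord (8.48%). Ms4a7 was at 3.24 and 6.12, F13a1 at 1.08 and 0.76, and Cd163 at 0.94 and 0.05. Mrc1 was at 0.60 and 0.81, and Ly6c2 at 0.03 and 0.37. The summed signal of that list was 15.3 in transgenic and 13 in wild-type brainstem/cerebellum, and 32.4 in transgenic and 10.9 in wild-type spinal cord. Most of the difference between the spinal cord sums came from Ms4a7 alone, with a log2 signal of 4.19 in transgenic and -1.93 in wild type. Ccr2 was above background on no array. Markers of lymphocytes were mixed: Cd8a, Cd79a and Ncr1 were above background on no array. Among T cell markers Cd3e differed by -0.01 and -0.41 and Cd4 by -0.03 and -1.8, and Cd3g, above background in transgenic spinal cord but not in wild type, was at least 1.39 higher there by its bound. Of the B cell markers Ms4a1 was likewise at least 1.43 higher in transgenic spinal cord, and the NK cell marker Klrb1c differed by 0.09 and -1.69. The Klrb1c probe was bright on every array (2.75 to 4.45). Other probes of Cd3e, Cd4 and Klrb1c were not above background on both arrays of either tissue. By the brightest probe none of 4 oligodendrocyte or 4 neuron markers passed 2-fold in either tissue. Over all genes 0.304% were 2-fold lower in brainstem/cerebellum and 6.37% in spinal cord. All 4 neuron markers were lower in transgenic spinal cord, with a median of -0.51. Other measured probes in spinal cord spanned -1.67 to -0.28 for Snap25 and -1.05 to 0.16 for Mog. Of 4 astrocyte markers, Gja1 was 2-fold higher in transgenic brainstem/cerebellum (1.95) and 2-fold lower in transgenic spinal cord (-1.81), by its brightest probe. Its other measured probes spanned -0.28 to 0.50 and -0.43 to -0.41. Of 4 endothelial markers, Kdr was 2-fold lower in both tissues (-1.32 and -1.84). The part of these cell markers in the differences of the interferon-stimulated genes was not tested.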

How the data were processed

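Total RNA of each sample was amplified, labelled with Cy3 and hybridised to 1 one-colour array, per the labels' protocols. The authors deposited the scanner output, with the intensity of each spot on a linear scale, from Agilent Feature Extraction, version 10.7.1.1 per the file headers and 9.5.1.1 per the submitters' processing notes. Per the file headers, the processed intensity is background-subtracted, and probe coordinates refer to mm9. The authors' series table also holds linear intensities. All 4 of its columns share the same sorted values, and the sources used here do not give its normalization.

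Each array's 75th percentile was subtracted from log2 processed signals, computed with Python 3.11.15, numpy 2.4.6 and pandas 2.3.3, without control spots or outlier-flagged spots (63 to 134 spots an array). The share of spots well above background was 59.2% to 64.0%. Spots of 1 probe were averaged, 45843 of 56597 probes had a gene name, mostly through RefSeq GRCm38.p6 symbols, and the brightest probe over the 4 arrays stood for a gene. The threshold was 2-fold. A gene above background on 1 array of a pair has a bound, the bright value less the dim one or, where this is higher, less the lowest signal well above background on the dim array. The number of arrays, 1 a group, limits the precision. Repeated spots (300 probes, 10 spots each) and spike-in probes gave the technical SD, in bins of signal. Signals above 2 supplied 1168 pairs of probe and array, and each bin of 1 unit from -5 to 0 only 4 to 8. None lay between -6 and -5, so the technical SD of dimmer genes rests on few probes. Every member is named; from the other interferon lists and the microglial and monocyte lists the 4 largest measured differences are named, with every ligand and receptor and the measured lymphocyte markers, except a few genes that are not reported here. The members and lists were chosen with earlier results of these data known, and promoter stretches are shown for 6 of the 8 members with the motif before the start and the largest brainstem/cerebellum differences (not Oas1g and Oas3, dim on most arrays). Alternatives were median, quantile and spike-in scaling (7 probes), normexp with offset 50 (R 4.3.3, limma 3.58.1), the authors' values, averaged probes, other filters on dim probes and thresholds of 1.5-fold and 3-fold. Scripts were tested on simulated data.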

Additional observations from a re-analysis of the deposited data

Results flagged for a closer look

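Among the 33 members above background on all 4 arrays, Cmpk2 was the 1 whose difference between genotypes had opposite directions in the 2 tissues. It was 0.066 in brainstem/cerebellum and -0.52 in spinal cord (log2, transgenic minus wild type). The brainstem/cerebellum value was smaller than its technical SD of 0.10, so its direction is not settled. The Cmpk2 result rests on 1 probe and 1 array a group. With median scaling the brainstem/cerebellum value was -0.10, the same direction as in spinal cord. The difference between the tissues was not tested.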

How the results depend on the processing

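With 1 array a group no replicate could be left out and no slide block could be fitted. No paired analysis was possible because each group has 1 array and the result comes from no test. The count of genes 2-fold lower stayed at 0 in both tissues under all the alternatives run. The count of 19 genes 2-fold higher in brainstem/cerebellum was 9 at a 3-fold threshold and 7 with normexp and quantile normalization, and 16 to 24 otherwise. The count of 23 in spinal cord was 9 at a 3-fold threshold, 11 with spike-in scaling and 15 with normexp, and 19 to 30 otherwise. The median difference in brainstem/cerebellum was 0.92 with median scaling and 0.63 with normexp, and that in spinal cord 0.74 with spike-in scaling and 0.96 with normexp. The median excess in spinal cord reversed to -0.19 with spike-in scaling. The median tissue difference in transgenic mice was 0.24 with spike-in scaling, and that in wild-type mice 0.33 with normexp and 0.44 with averaged probes. Single genes reversed as follows. With averaged probes Oas1b was at 0.075 in brainstem/cerebellum and 0.026 in spinal cord, and Dtx3l at -0.23 and -0.0035, its second probe being below background on all 4 arrays. With the authors' values Oas1b was at 0.0032 in brainstem/cerebellum. With median scaling Trim25 was at -0.093 and Cmpk2 at -0.10 in brainstem/cerebellum, and with spike-in scaling Trim25 was at -0.16 and Ifit3 at -0.21 in spinal cord. Both scalings move all genes of an array by 1 constant, to a median over all genes of -0.23 in brainstem/cerebellum with median scaling and -0.43 in spinal cord with spike-in scaling. For normexp, the authors' values and averaged probes other than Dtx3l the cause was not tested. Dim genes such as Mx1, Zbp1, Oas1g and Oas3 are limited by signal over background.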

Other observations

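Siglech, a marker of plasmacytoid dendritic cells that microglia also express, had opposite differences in the 2 tissues, at 0.43 in brainstem/cerebellum and -1.62 in spinal cord (log2, transgenic minus wild type, 1 array a group, untested). The other 2 Siglech probes spanned 0.11 to 0.47 in brainstem/cerebellum and -1.68 to -0.25 in spinal cord.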
